A study of Mus musculus with 6 samples.

Results

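The TNF ligand and receptor superfamily was examined in RNA sequencing of cultured mouse bone marrow stromal cells (BMSCs) with and without retinoic acid (RA). Its members were taken by gene name. These were all names beginning with Tnfsf or Tnfrsf and a number, together with Tnf, Lta, Ltb, Ltbr, Cd40, Cd27, Fas and Fasl. Tnfsf11, Tnfrsf11a and Tnfrsf11b, the RANK axis, were left out. This gave 36 of the 25722 genes in the count tables, namely 14 ligands, 1 antisense RNA (Tnfsf13os) and 21 receptors. The cells were adherent marrow cells of wild-type C57BL/6 mice, grown in 20% serum at 5% oxygen with 10 μM of a ROCK inhibitor, from tibia and femur and used before the third passage. In 3 control libraries the cells had received DMSO, the solvent, and in 3 RA libraries all-trans RA (ATRA), for which the labels give 1 μM and 48 h. The methods of the study give a lower dose and a shorter time for the sequenced cells. The labels speak of 2 biological replicates and not of separate animals, so the p-values measure the spread between these 3 and 3 libraries, which may be partly technical. No cytokine is named for these cultures. The study sequenced the cells to ask how RA restrains inflammatory signaling in BMSCs, in which NF-κB, the pathway that TNF receptors lead to, has a part.

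The libraries held 14737636 to 18511905 counts, and 13842 genes passed the filter on low counts. At a Benjamini-Hochberg adjusted p under 0.05 in edgeR's quasi-likelihood test and a change of at least 1.5-fold, 6 genes (0.0433%) were called. Cyp26b1, an enzyme that degrades RA and a known RA target, was among them. It rose from 5.20 ± 0.670 CPM (TMM-scaled read counts relative to the library total, SD, n = 3) in control to 106.8 ± 18.4 (SD, n = 3) in RA libraries. Rarb, Tgm2 and Dhrs3, also chosen as a check on RA, did not pass. They were 14.9-fold, 3.11-fold and 1.25-fold higher after RA, with edgeR adjusted p = 0.156, 0.193 and 0.799. For Dhrs3 the groups overlapped. The main component of variation did not follow RA. It parted control 2, RA 1 and RA 2 (library set 1) from control 1, control 3 and RA 3 (library set 2), and neither labels nor methods give a batch for this. Values within each set are therefore given where they bear on a result. Control 2 was the only control of set 1 and RA 3 the only RA library of set 2. Each difference within a set thus rests on a single library on one side. Although the cells are labelled BM-MSCs, the 14 macrophage markers summed to 11433 to 12683 CPM per kilobase and the 13 stromal markers to 204.3 to 531.0 CPM per kilobase. Of the stromal markers that define MSCs, Thy1 had at most 7 counts and Nt5e at most 21 counts in a library, whereas Eng (CD105) had 472 to 1125 counts. Pdgfrb, with 861 to 2516 counts, and Cxcl12, with 5256 to 10397 counts, were also present in every library. Of 4 T cell markers 1 was listed, with at most 1 count in a library. In such bulk samples fewer cells of a type and less RNA per cell cannot be told apart.

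Ligands of the TNF superfamily are mostly membrane-anchored trimers, some of which are cut free by proteases, above all TNF by Adam17. Their receptors carry cysteine-rich repeats outside the cell and fall into groups by what they recruit inside it. Receptors with a death domain bind Tradd or Fadd and can lead to caspase activation or to NF-κB, whereas the others bind TRAF adaptors and lead to NF-κB, directly or through the kinase Map3k14 (NIK). Decoy receptors bind ligand without signaling of that kind. In bone marrow, macrophages are a main source of TNF, and stromal cells respond to it.

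RefSeq start sites were at hand for 28 of the 36 members, in sequence windows of 250 bases before and 50 bases after each start (build GRCm38.p6). The members without one were Cd40, Tnfrsf10b, Tnfrsf22, Tnfrsf26, Tnfsf12, Tnfsf13os, Tnfsf4 and Tnfsf9. Both windows of Tnfrsf19 are shown because this receptor had the largest difference between RA and control, and that of Tnf because it was the most abundant ligand. Each is written 5′ to 3′ on the minus strand. Capitals mark the bases from the annotated start on in Tnfrsf19, and the matches to an NF-κB motif in Tnf.
Tnfrsf19, distal start, chr14:61046806-61047105: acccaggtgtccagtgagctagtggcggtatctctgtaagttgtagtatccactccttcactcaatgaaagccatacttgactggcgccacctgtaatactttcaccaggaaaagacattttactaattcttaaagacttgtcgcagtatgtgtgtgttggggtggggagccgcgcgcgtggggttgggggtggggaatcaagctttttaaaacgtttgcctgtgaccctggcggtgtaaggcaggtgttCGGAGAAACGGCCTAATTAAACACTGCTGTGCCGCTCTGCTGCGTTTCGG
Tnfrsf19, proximal start, chr14:61037938-61038237: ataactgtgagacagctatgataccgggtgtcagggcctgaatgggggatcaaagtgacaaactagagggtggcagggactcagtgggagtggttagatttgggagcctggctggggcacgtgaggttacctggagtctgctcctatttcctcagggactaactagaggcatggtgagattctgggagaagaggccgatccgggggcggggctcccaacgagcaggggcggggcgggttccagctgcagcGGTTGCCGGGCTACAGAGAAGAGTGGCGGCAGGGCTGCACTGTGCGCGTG
Tnf, chr17:35201958-35202257: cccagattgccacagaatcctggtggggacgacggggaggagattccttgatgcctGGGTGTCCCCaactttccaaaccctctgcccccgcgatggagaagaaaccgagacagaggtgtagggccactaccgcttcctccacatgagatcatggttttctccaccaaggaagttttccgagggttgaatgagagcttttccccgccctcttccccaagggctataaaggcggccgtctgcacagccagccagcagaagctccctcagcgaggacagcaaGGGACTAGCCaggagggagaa
Neither Tnfrsf19 window held the retinoid receptor core letters AGGTCA or AGTTCA, or the NF-κB motif of GGG and CC spaced by 5 bases, on either strand. Among all 32851 such windows of mouse genes, 16.3% held AGGTCA, 14% held AGTTCA and 50.8% held the NF-κB motif. The direct repeat DR5, AGGTCA followed after 5 bases by AGGTCA and a classical RA response element, stood in 3 windows of all genes and in 0 of the members. An exact match was so rare (0.00913% of all windows) that its absence from the members says nothing about RA response elements in them. The Tnf window held 2 matches to the NF-κB motif, of which GGGACTAGCC lay after the annotated start. Of the 28 members with a window, 19 had at least 1 match in any of their windows.

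Tnf, the founding ligand, was by far the highest ligand per transcript length, with 78.4 CPM per kilobase in control and 65.0 CPM per kilobase in RA libraries. It stood at 98.1, 195.1 and 92.2 CPM in control 1 to 3 and at 117.5, 120.2 and 81.7 CPM in RA 1 to 3. Control 2 was higher than every other library, and the groups overlapped. The log2 fold change was -0.27 (SE, the standard error of the fit, 0.32, adjusted p = 0.842 by edgeR), and without control 2 it was 0.18. Within set 1 the difference was -0.71 and within set 2 it was -0.22, on the log2(CPM + 0.5) scale, and with the set as a term of the fit the log2 fold change was -0.47.

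Tnfsf12 (TWEAK), the ligand of Tnfrsf12a, came second among the ligands at 18.9 CPM per kilobase in control and 15.4 CPM per kilobase in RA libraries. Its values were 35.4, 17.8 and 32.5 CPM in control 1 to 3 and 19.4, 19.1 and 31.6 CPM in RA 1 to 3 (log2 fold change -0.29, SE 0.32, adjusted p = 0.836 by edgeR). Its neighbour Tnfsf13 (APRIL), which binds receptors of B cells, had 7.0, 1.17 and 6.46 CPM in control and 1.17, 1.33 and 6.14 CPM in RA libraries. For both ligands the split was by library set, with control 2, RA 1 and RA 2 low and the others high, and not by RA. The log2 fold change of Tnfsf13 was -0.76 over all libraries and -1.95 without RA 3. The exons of Tnfsf12 and Tnfsf13 overlap those of the fused gene Tnfsfm13 over 48.3% and 60% of their length, and Tnfsf13 also shares 221 bases with the antisense Tnfsf13os, so their counts depend on how the reads were assigned.

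Ltb, which joins Lta in the membrane-bound lymphotoxin, had 5.60, 2.82 and 6.74 CPM in control and 2.00, 1.78 and 5.66 CPM in RA libraries. RA 1 and RA 2 were lowest, but RA 3 stood at the level of the set 2 controls (log2 fold change -0.68, SE 0.54, adjusted p = 0.803 by edgeR). Without RA 3 the log2 fold change of Ltb was -1.41. Tnfsf9, the ligand of Tnfrsf9 (CD137), had 1.75, 4.89 and 1.24 CPM in control and 4.34, 2.09 and 1.5 CPM in RA libraries, with a log2 fold change of 0.00085. The remaining tested ligands were Tnfsf10 (TRAIL), Tnfsf13b (BAFF) and Tnfsf15 (TL1A), all at 0.190 to 0.470 CPM per kilobase on average, with log2 fold changes of 0.03, 0.24 and -0.06. Lta, Fasl, Tnfsf4, Tnfsf8, Tnfsf14 and Tnfsf18 were too low to be tested. Of the 8 tested ligands 3 were higher and 5 lower after RA, none past the test, with a median log2 fold change of -0.16.

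**Figure D1:**
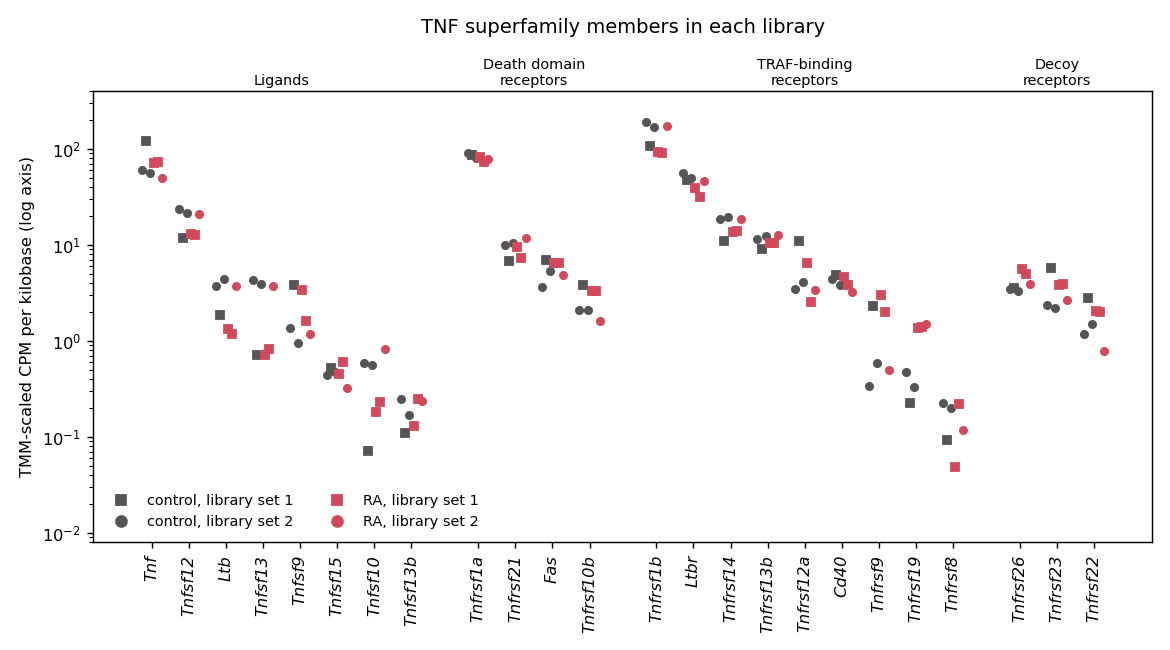
Level of the 24 tested members in each library, as TMM-scaled CPM per kilobase of merged exons on a log axis, with grey for control, red for RA, squares for library set 1 and circles for set 2. Tnfrsf1b, Tnfrsf1a and Tnf are the highest members, and Tnfrsf19 has all 3 RA libraries above all 3 controls.

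Among the death domain receptors, Tnfrsf1a, the main receptor of soluble TNF, was the highest with 85.6 CPM per kilobase in control and 77.6 CPM per kilobase in RA libraries. It was one of the steadiest members, at 232.7, 222.5 and 209.9 CPM in control 1 to 3 and 211.5, 190.8 and 200.6 CPM in RA 1 to 3 (log2 fold change -0.14, SE 0.11, adjusted p = 0.803 by edgeR). Tnfrsf21 (DR6), which acts in neurons and lymphocytes, had 40.8, 27.9 and 43.3 CPM in control and 38.9, 29.7 and 47.8 CPM in RA libraries. Fas, the receptor of Fas ligand, had 7.56, 14.3 and 11 CPM in control and 13.4, 13.2 and 10.0 CPM in RA libraries. The groups overlapped for both receptors, at log2 fold changes of 0.06 and 0.15. Tnfrsf10b, the mouse TRAIL receptor, had a log2 fold change of 0.05, and Tnfrsf25 (DR3) had at most 1 count in a library. Of the 4 tested death domain receptors 0 passed the edgeR test and 0 had an unadjusted p under 0.05, where 0.0433% and 5.25% of all genes did.

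Tnfrsf1b, the TNF receptor without a death domain that is prominent on leukocytes, was the highest member of all at 155.6 CPM per kilobase in control and 118.6 CPM per kilobase in RA libraries. It had 725.9, 411.2 and 645.5 CPM in control 1 to 3 and 349.4, 342.1 and 666.4 CPM in RA 1 to 3. The 3 libraries of set 1 lay below the 3 of set 2, and RA 3 lay above control 3 (log2 fold change -0.39, SE 0.33, adjusted p = 0.803 by edgeR). Within set 1 the log2 difference was -0.25 and within set 2 it was -0.04.

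Ltbr, the lymphotoxin β receptor, which leads to the alternative NF-κB pathway, had 130.1, 110.5 and 116.8 CPM in control 1 to 3 and 91.2, 74.9 and 109.8 CPM in RA 1 to 3. All 3 RA libraries lay below all 3 controls, though RA 3 lay close to control 2. The log2 fold change was -0.37 (SE 0.16, adjusted p = 0.795 by edgeR), with -0.42 within set 1 and -0.17 within set 2. Across the alternative fits it kept its direction, from -0.52 to -0.24, with edgeR or DESeq2 adjusted p from 0.290 to 1.00.

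Tnfrsf14 (HVEM), the receptor of Tnfsf14, had 26.9, 15.7 and 27.7 CPM in control and 19.7, 20.0 and 26.8 CPM in RA libraries. Tnfrsf13b (TACI), a receptor of BAFF and APRIL best known from B cells, had 32.9, 25.5 and 34.8 CPM in control and 29.3, 29.3 and 35.9 CPM in RA libraries. This was a level of 10.96 CPM per kilobase in control and 11.11 in RA libraries, while the 3 listed B cell markers summed to between 0.232 and 3.77 CPM per kilobase. Tnfrsf12a (Fn14), the TWEAK receptor, had 6.72, 21.2 and 7.91 CPM in control and 12.4, 4.95 and 6.48 CPM in RA libraries, control 2 being the highest. Without control 2 its log2 fold change went from -0.59 to 0.13. Cd40, through which T cells activate macrophages, had 14.8, 16.6 and 13.1 CPM in control and 15.6, 12.9 and 11.1 CPM in RA libraries. None of these 4 receptors passed the test, at log2 fold changes of -0.08, 0.02, -0.59 and -0.17 (adjusted p by edgeR = 0.943, 0.980, 0.809 and 0.836).

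Tnfrsf19 (TROY, ENSMUSG00000060548, chromosome 14 of GRCm38 from 60963875 to 61046490) stood apart from the other members. TROY is an orphan receptor close in sequence to the ectodysplasin receptors, known from hair follicles, the nervous system and mesenchymal progenitors. It had 2.24, 1.06 and 1.58 CPM in control 1 to 3, which were 32, 20 and 23 counts. It had 6.45, 6.53 and 7.16 CPM in RA 1 to 3, which were 116, 103 and 105 counts. Every RA library was higher than every control, and RA 3 was no lower than the RA libraries of set 1. The mean was 1.63 ± 0.590 CPM (SD, n = 3) in control and 6.71 ± 0.391 (SD, n = 3) in RA libraries, a log2 fold change of 2.05 (SE 0.30), or 4.14-fold. In edgeR's quasi-likelihood test over all genes this had an unadjusted p of 0.00031 and an adjusted p of 0.183, so it missed the threshold. When the fit took the library set into account, the edgeR adjusted p was 0.0084, at a log2 fold change of 2.21, and with DESeq2 it was 2.06e-06, at 2.06. These fits called 1.54% and 0.758% of all genes with an adjusted p, and Tnfrsf19 alone of the members. The library set was found from these same data, so p-values of the fit with it may be too small. The log2 difference was 2.16 within set 1 and 1.68 within set 2. Leaving out each library in turn gave log2 fold changes from 1.82 to 2.34 and edgeR adjusted p from 0.154 to 0.820, in no case under 0.05.

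The level of Tnfrsf19 after RA, 1.42 CPM per kilobase, was lower than that of every other tested receptor but Tnfrsf8. Of the 13 stromal and 14 macrophage markers, Lepr, Dcn, Cxcl12 and the macrophage gene Itgam also had all RA libraries above all controls, as did 5.71% of all genes. The collagen genes Col1a1, Col1a2 and Col3a1, which overlapped between the groups, had log2 fold changes of -0.58, -0.56 and -0.41 and were lower after RA within both sets. Lepr, the leptin receptor of marrow stroma, had 0.490, 0.479 and 0.481 CPM in control and 2.5, 3.04 and 9.48 CPM in RA libraries. The 13 stromal markers together summed to between 2274 and 4404 CPM in control and between 1674 and 3442 CPM in RA libraries, and the 14 macrophage markers to between 20925 and 23184 CPM and between 20512 and 21788 CPM. In both sums the groups overlapped. The osteoclast list summed to 89.4 to 183.9 CPM in control and 126.1 to 358.5 CPM in RA libraries, also with overlap. Its gene Mmp9 had a log2 fold change of 1.40 (SE 0.56, adjusted p = 0.795 by edgeR), with 1.00 within set 1 and 0.73 within set 2. With the library set as a term of the fit, the edgeR adjusted p of Mmp9 was 0.0167. The part of other cells in the values of Tnfrsf19 was not tested.

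**Figure D2:**
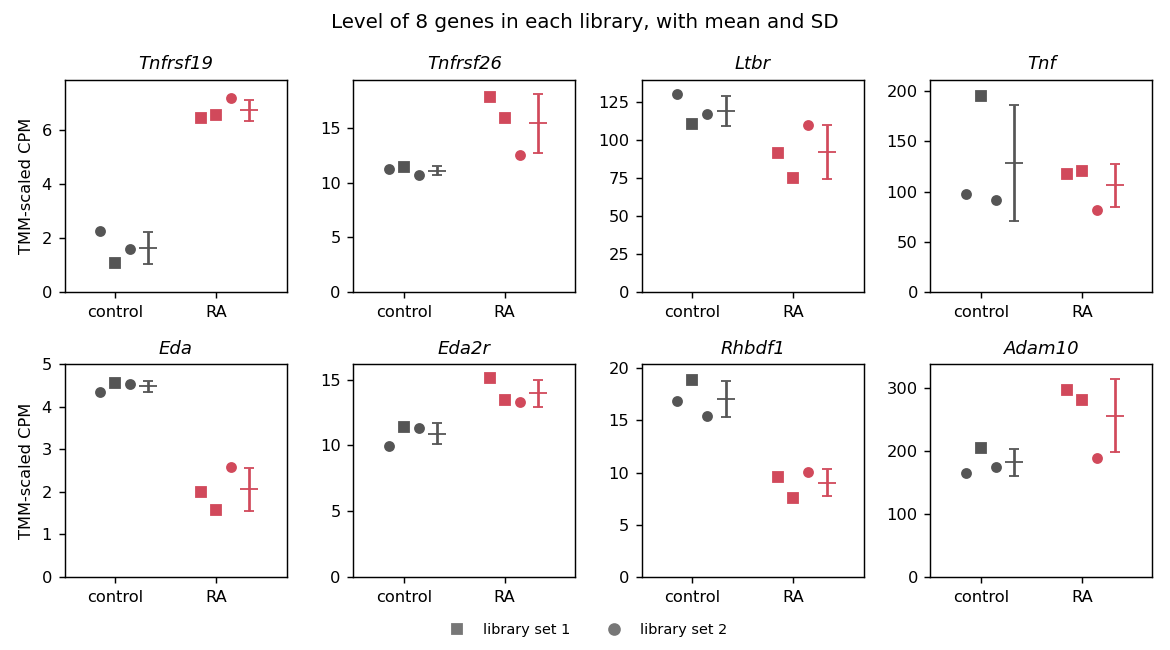
TMM-scaled CPM (linear axes from 0) of 8 genes in the 3 control and 3 RA libraries, with squares for library set 1, circles for set 2 and the mean with its SD beside the points. For Tnfrsf19, Tnfrsf26 and Eda2r the RA libraries lie above all controls and for Ltbr, Eda and Rhbdf1 below them, while Tnf and Adam10 overlap.

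The other TRAF-binding receptors were low. Tnfrsf9 (CD137), induced on activated lymphocytes and myeloid cells, had 0.910, 6.33 and 1.58 CPM in control 1 to 3 and 8.17, 5.39 and 1.36 CPM in RA 1 to 3, and was named here after its values were seen. Its 3 libraries of set 1 lay above the 3 of set 2, and beside a log2 fold change of 0.74 (SE 0.85, adjusted p = 0.837 by edgeR) over all libraries the differences were 0.07 within set 1 and 0.12 within set 2 (log2). The fitted value for Tnfrsf9 was 2.01 without control 2 and 0.21 without RA 1. Tnfrsf8 (CD30) had at most 12 counts in a library. Cd27, Tnfrsf4 (OX40), Tnfrsf13c (BAFF receptor) and Tnfrsf18 (GITR), receptors of lymphocytes, were below the filter. Of the 9 tested TRAF-binding receptors 3 were higher and 6 lower after RA, and the median of their log2 fold changes was -0.17.

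The mouse decoy receptors Tnfrsf22, Tnfrsf23 and Tnfrsf26 lie side by side on chromosome 7. They are close copies, so reads may have been split between them. Tnfrsf26 had 11.2, 11.4 and 10.7 CPM in control 1 to 3 and 17.8, 15.9 and 12.6 CPM in RA 1 to 3. All 3 RA libraries were higher than all 3 controls, which lay close together. The log2 fold change was 0.47 (SE 0.18, unadjusted p = 0.0332, adjusted p = 0.795 by edgeR), with 0.54 within set 1 and 0.19 within set 2. Over the alternatives it ran from 0.38 to 0.60, and its adjusted p from 0.282 (edgeR with the library set) to 1.00. Tnfrsf23 and Tnfrsf22 overlapped between the groups, at log2 fold changes of 0.01 and -0.18 (adjusted p by edgeR = 0.996 and 0.927).

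Of the 36 members 24 passed the filter on low counts, 8 ligands and 16 receptors, and the 12 others had at most 16 counts in any library. By edgeR's quasi-likelihood test 0 of the 24 were called over all genes, where 0.0433% of all genes were, and 11 were higher and 13 lower after RA. At an unadjusted p under 0.05 there were 2, Tnfrsf19 and Tnfrsf26, against 5.25% of all genes (2.89% higher and 2.36% lower after RA). In 3 members (Tnfrsf19, Tnfrsf26 and Ltbr) the groups did not overlap, a share close to the 12.6% of all genes (5.71% with RA above and 6.87% with RA below). The median log2 fold change of the tested members was -0.07, beside -0.02 for all 13842 genes. For 19 of the 24 the change was less than 1.5-fold. With 3 libraries in each group, exact permutation of a single gene cannot give a two-sided p below 0.1.

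**Figure D3:**
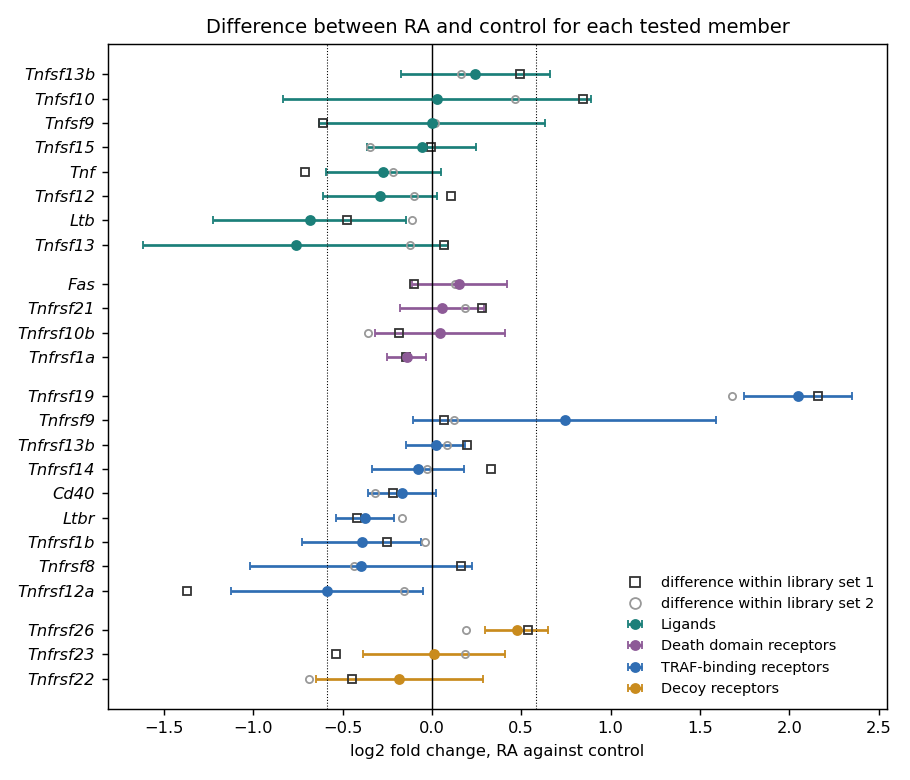
Log2 fold change of RA against control for the 24 tested members by role, with standard errors from edgeR as bars, dotted lines at 1.5-fold, and the difference within library set 1 (open squares) and set 2 (open circles) on the log2(CPM + 0.5) scale. Tnfrsf19 lies at 2.05 and is far outside the other members, most of which lie between the dotted lines.

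More members parted by library set than by RA. In 15 of the 24 tested members the 3 libraries of set 1 did not overlap those of set 2, which is 62.5% of them against 47.7% of all tested genes. As the sets were found from these same data, this is a description without a test. Set 1 was higher in 7 members, Tnf, Tnfsf9, Fas, Tnfrsf10b, Tnfrsf9, Tnfrsf22 and Tnfrsf23. Set 2 was higher in 8 members, namely Tnfsf12, Ltb, Tnfsf13, Tnfsf10, Tnfrsf21, Tnfrsf1b, Tnfrsf14 and Tnfrsf13b. The contrasts were largest for Tnfrsf9, whose mean was 5.16-fold higher in set 1, and for Tnfsf13 and Tnfsf10, whose means were 5.34-fold and 4.13-fold higher in set 2. Tnf and its receptor Tnfrsf1b went opposite ways, Tnf being 1.59-fold higher in set 1 and Tnfrsf1b 1.85-fold higher in set 2. Tnfrsf1a stayed level between the sets, with means of 208.3 and 214.4 CPM. Tnfsf10 had 3.08, 0.372 and 2.96 CPM in control and 0.945, 1.20 and 4.37 CPM in RA libraries, and was likewise named after its values were seen. Within both sets it was higher after RA, by 0.85 and 0.47 (log2), but its fitted log2 fold change was -0.48 without control 2 and -0.97 without RA 3. Among markers of other cell types the osteoclast list summed to 183.9 to 358.5 CPM in set 1 and 89.4 to 126.1 CPM in set 2. That sum was mostly Mmp9, with means of 245.8 CPM in set 1 and 69.1 CPM in set 2. Ctsk was also higher in set 1, by 1.85-fold, while Acp5 and Ocstamp were 2.17-fold and 2.89-fold higher in set 2. The B cell list summed to 0.334 to 1.20 CPM in set 1 and 2.96 to 5.39 CPM in set 2, and the endothelial list to 6.33 to 10.5 CPM and 15.8 to 16.9 CPM, mostly through Cd79b and Pecam1. The stromal sum (2203 to 4404 CPM in set 1, 1674 to 2511 CPM in set 2) overlapped, and so did the macrophage sum (20512 to 21702 CPM and 20925 to 23184 CPM). Of the stromal genes, Pdgfra, Pdgfrb, Vcam1 and Eng were higher in set 1 without overlap (2.24-fold, 1.91-fold, 1.77-fold and 1.51-fold). So were Lum and Nt5e, at low counts. The other stromal genes overlapped between the sets, and of these Lepr was 1.74-fold higher in set 2. Single macrophage genes went both ways, with Mrc1 2.48-fold and C1qc 1.99-fold higher in set 2 and Lyz2 1.52-fold and Fcgr1 1.54-fold higher in set 1. The part of these cells in the differences between the sets was not tested.

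**Figure D4:**
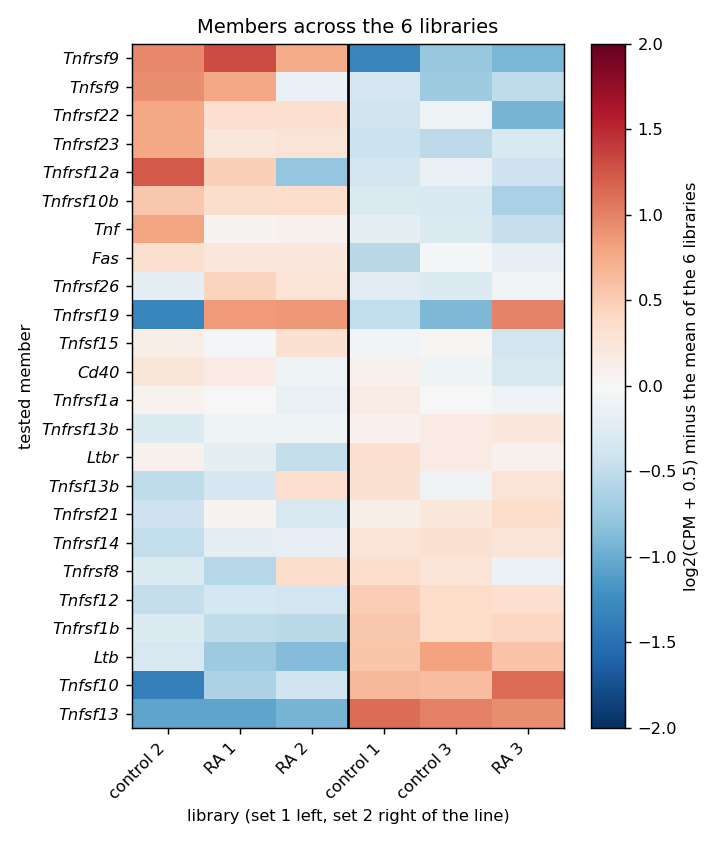
Heat map of log2(CPM + 0.5) minus the mean of the 6 libraries for the 24 tested members, ordered by the ratio of set 1 to set 2, with the libraries of set 1 left of the line. Most members change color at the line between the sets, whereas Tnfrsf19 is low in the 3 controls and high in the 3 RA libraries of either set.

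Inside the cell, 28 adaptors and enzymes that carry the signal of TNF receptors were followed, all of which were tested. By the edgeR test 0 were called, beside 0.0433% of all genes, and 1 had an unadjusted p under 0.05, beside 5.25% of all genes. Of the 28, 11 were higher and 17 lower after RA, with log2 fold changes between -0.44 and 0.37 (median -0.06). DESeq2 called 0 as well. Rnf31 (HOIP), the catalytic subunit of the linear ubiquitin ligase, had 64.2, 54.4 and 62.1 CPM in control and 49.0, 37.9 and 51.7 CPM in RA libraries. All 3 RA libraries were lower (log2 fold change -0.38, SE 0.15, adjusted p = 0.795 by edgeR). Its partner in that ligase, Rbck1 (HOIL), was also lower in every RA library, with 79.2 ± 2.88 CPM (SD, n = 3) in control and 69.8 ± 4.95 (SD, n = 3) after RA, as were Tnip1, which restrains NF-κB, and the adaptor Traf2. Their log2 fold changes were -0.18, -0.23 and -0.30. The remaining subunit of the ligase, Sharpin, overlapped between the groups at a log2 fold change of -0.06. Map3k7 (TAK1), the kinase upstream of IKK, was higher in every RA library, at 76.1 ± 1.45 CPM against 87.9 ± 8.53 (SD, n = 3 each). Together 5 of the 28 did not overlap, where 12.6% of all genes did not, and none of the 5 had an edgeR adjusted p under 0.795 in the fit without covariates. With the set as a term, Rnf31 had the lowest of the 5, at 0.285.

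Of 9 proteases and regulators that act on TNF ligands and receptors, 0 were called by edgeR (0.0433% of all genes were) and 2 had an unadjusted p under 0.05 (5.25% of all genes). Rhbdf1 (iRhom1), a cofactor that brings Adam17 to the cell surface, had 16.8, 18.8 and 15.4 CPM in control 1 to 3 and 9.56, 7.55 and 10.0 CPM in RA 1 to 3. Every RA library was below every control, in both library sets, by -1.10 and -0.66 (log2). The log2 fold change was -0.91 (SE 0.18, adjusted p = 0.307 by edgeR). With DESeq2 the adjusted p was 0.00614, and edgeR gave 0.0413 once the set was a term of the fit. These fits called 0.758% and 1.54% of all genes. Its relative Rhbdf2 (iRhom2), the form that myeloid cells use, was at 110.5 ± 20.0 CPM in control and 94.4 ± 4.93 in RA libraries (SD, n = 3 each). Per kilobase this was 20.9 CPM in control and 17.8 CPM in RA libraries, against 3.13 and 1.66 CPM per kilobase for Rhbdf1. Adam17 itself was at 223.1 ± 20.2 and 237.7 ± 23.4 CPM (SD, n = 3 each). Adam10, a related sheddase, had 165.3, 205.2 and 174.4 CPM in control and 296.3, 280.9 and 189.3 CPM in RA libraries. Only RA 3 lay within the range of the controls (log2 fold change 0.49, SE 0.20, adjusted p = 0.795 by edgeR). Timp3, the inhibitor of Adam17, passed the edgeR test only with the set as a term (adjusted p = 0.0216, log2 fold change -0.62) and not in the fit without it (-0.33, edgeR adjusted p = 0.818). For Rhbdf1 and Timp3 alike, the p-value with the set may be too small, as the set came from these same data.

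The ectodysplasin genes belong to the same superfamily but carry names that the selection by symbol does not take. Eda, the ligand known from skin appendages, had 4.34, 4.57 and 4.54 CPM in control 1 to 3 and 2.00, 1.59 and 2.59 CPM in RA 1 to 3. The controls lay close together, and every RA library was below them. The log2 fold change was -1.12 (SE 0.25, unadjusted p = 0.00307, adjusted p = 0.385 by edgeR), with -1.15 within set 1 and -0.68 within set 2. The DESeq2 adjusted p was 0.0554 and that of edgeR with the library set 0.0756, so Eda passed in neither. Eda2r, a receptor of one form of ectodysplasin, had 9.95, 11.4 and 11.3 CPM in control and 15.1, 13.4 and 13.3 CPM in RA libraries, higher in every RA library (log2 fold change 0.36, SE 0.15, adjusted p = 0.795 by edgeR). Relt, another receptor of the family, overlapped between the groups at a log2 fold change of -0.09, and Ngfr had at most 7 counts in a library.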

How the data were processed

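RNA of 3 control and 3 RA libraries was sequenced. The authors deposited whole-number counts of reads per gene for each library. Their processing notes name Bowtie2 2.2.3 and the build mm10. The counting program and its strand setting are not given in the sources used here, so reads of overlapping or antisense genes cannot be told apart. Gene positions came from GENCODE M21 by gene ID.

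The counts were scaled by TMM, filtered with filterByExpr and fitted over all genes with edgeR 4.0.16 in R 4.3.3 (quasi-likelihood test, Benjamini-Hochberg adjustment, no covariate). Calls needed a change of 1.5-fold or more besides an adjusted p under 0.05. Standard errors are those of the fitted log2 fold changes. Alternatives were DESeq2 1.42.0, other scalings and filters, each library left out, the replicate number as a block, and the library set as a covariate. The library sets came from a principal component analysis of the 1000 genes that varied most in these same libraries. The p-values of the fit with the set may therefore be too small. Differences within sets used log2(CPM + 0.5). The fit was tested on simulated data. Relative to the library totals, before TMM scaling, 3 counts correspond to 0.162 to 0.204 CPM, which covers counting error only.

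The members and gene lists were chosen with earlier results of these data known. Values in every library are given for members with an unadjusted p under 0.05 or without overlap between the groups, and for the 5 highest ligands and 10 highest receptors per kilobase. The replicate numbers were checked by the correlation of same-numbered libraries' deviations from their group means, which was -0.51, 0.34 and 0.57 for replicates 1 to 3, so they were not taken as pairs.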

Additional observations from a re-analysis of the deposited data

How the results depend on the processing

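Of the 24 tested members edgeR called 0, and DESeq2, the library set as a covariate and an unadjusted p each called 1, Tnfrsf19. Of the 9 proteases and regulators edgeR called 0, while DESeq2 called 1, the covariate 2 and an unadjusted p 1. Over all genes the 6 calls became 123 with DESeq2, 20 without a filter, 213 with the covariate and 491 at an unadjusted p, and 0 to 6 when single libraries were left out. The median log2 fold change of the members went from -0.07 to -0.14 with the covariate and ran from -0.19 to -0.045 without single libraries. With the covariate the log2 fold change changed sign for Tnfrsf10b (-0.28), Fas (-0.0030), Tnfsf9 (-0.36), Tnfrsf23 (-0.21), Tnfrsf14 (0.15) and Tnfsf12 (0.0015). That of Tnfsf9 also did so without a filter (-0.0062) and with at least 10 counts in every library (-0.0014). Leaving out single libraries changed the sign of other values, with ranges of Tnfrsf13b -0.090 to 0.11, Tnfrsf22 -0.42 to 0.29, Tnfrsf10b -0.11 to 0.41, Tnfrsf12a -1.04 to 0.13, Tnfrsf21 -0.12 to 0.22, Tnf -0.46 to 0.18, Fas -0.054 to 0.41, Tnfrsf8 -1.03 to 0.034, Tnfsf13b -0.0041 to 0.56, Tnfsf9 -0.54 to 0.84, Tnfrsf23 -0.22 to 0.60, Tnfsf10 -0.97 to 0.42, Tnfrsf14 -0.29 to 0.057, Tnfsf15 -0.30 to 0.13. Without changing sign, Ltb reached -1.41 and Tnfsf13 -1.95 without RA 3, and Tnfrsf9 2.01 without control 2. The cause was not tested. In all, 9 members kept their direction in every alternative and 15 did not. With the replicate number as a block 0 members were called, and Tnfrsf19 had an edgeR adjusted p of 0.258. Tnfrsf8 rested on at most 12 counts in a library.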
